A study of Mus musculus with 8 samples.

Results

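Mouse embryonic fibroblasts carrying the R284S variant of human STING were set against the same cells carrying wild-type human STING (hSTING), both as control cells that had received no DNA. These were 2 of the 8 arrays of the series, and they were taken by their labels alone. All 8 cultures were STING-/- fibroblasts, called primary in the labels, and each held 1 of 4 constructs: the empty pBabe vector, hSTING, the STING-associated vasculopathy variant N154S, or R284S. Each construct was read on 1 control array and on 1 array of cells given dsDNA in Lipofectamine 2000 for 9 h, so that no group had a replicate. The labels leave unsaid whether control cells had Lipofectamine without DNA. Every line, the hSTING comparator included, lacked the mouse gene, and nothing in the labels divides a line into separate cultures or clones, so a difference between lines could come from the construct or from the cell population that carries it, and these cannot be told apart. The human transcript was not read out separately on this mouse array, and the probes for mouse Sting1 gave log2 signals of 3.84 with hSTING and 3.95 with R284S, below the array median, which checks no label.

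STING is an adaptor protein of the endoplasmic reticulum. When cGAS meets DNA in the cytosol it makes the cyclic dinucleotide cGAMP, which binds STING, and STING then recruits the kinase TBK1, which activates IRF3. IRF3 turns on type I interferon and a set of chemokine and antiviral genes, NF-kB turns on inflammatory genes alongside it, and secreted interferon acts through JAK-STAT signalling on a wider set of interferon-stimulated genes. R284S is known as a gain-of-function variant that signals without added ligand, so the comparison asks what the variant adds to the resting activity of wild-type STING and what it lowers.

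Over 22180 genes with a probe set of their own, 156 (0.703%) were 2-fold or more higher with R284S and 107 (0.482%) were 2-fold or more lower. To be counted, a gene needed log2 signals at least 1 apart and, on the brighter array, a signal no lower than that array's median of 4.45 (hSTING) or 4.46 (R284S). Of the higher genes, 28 passed 4-fold, against 8 of the lower genes. The median difference over all genes was 0.01 on the log2 scale, and 95% of genes lay between -0.62 and 0.67. With 1 array on each side this comparison has no test and no error of its own, and the number of arrays limits its precision. Where the dimmer signal of a counted gene lay below its array's median, it was raised to that median and the fold is given as a lower bound ("at least"). This applied to 37 of the higher and 10 of the lower genes. Such genes were counted by their measured difference, so the counts include genes whose bound lies below 2-fold. Examples are Zfp455 and Ccl4, at least 1.01-fold and 1.23-fold higher, and Plxnc1, at least 1.28-fold lower. In RNA from whole cultures, fewer cells expressing a gene and less RNA per cell cannot be told apart.

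**Figure D1:**
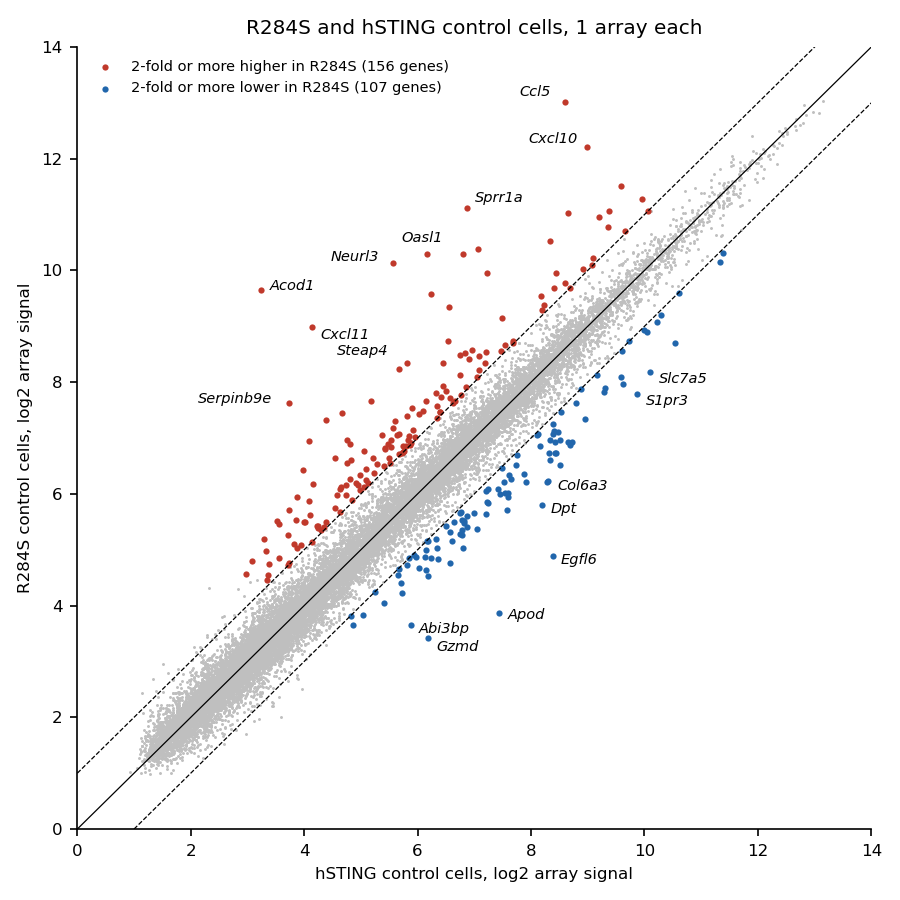
Log2 signal of 22180 genes in hSTING control cells (x axis) and R284S control cells (y axis), 1 array each, with dashed lines at a 2-fold difference. The 156 counted higher genes (red) reach much farther from the diagonal than the 107 counted lower genes (blue), and grey points outside the lines are genes whose brighter array was below its median.

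A second measure used the other arrays as well. A limma model with a term for each of the 4 constructs and a term for dsDNA, fitted over all 8 arrays, gave each gene a difference between R284S and hSTING averaged over control and dsDNA cells, with a standard error and a Benjamini-Hochberg adjusted p-value. By this fit 113 genes (0.509%) rose and 98 (0.442%) fell at an adjusted p below 0.05, and only such genes are said below to have risen or fallen. Without the 2 vector arrays these numbers were 33 and 46, and without the 2 N154S arrays 17 and 30. Its error holds the unevenness of the dsDNA response between lines, so a gene that stood high with R284S in control cells alone carries a large error, and its p-values measure the spread between these 8 arrays and not between repeats of a culture. Since the control arrays enter the fit, it is not independent of the control comparison: 58 of the 156 higher genes rose in it and 68 of the 107 lower genes fell.

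The receptor-proximal part of the pathway differed little between the lines in control cells. None of 16 measured genes of the cGAS-STING pathway was counted in either direction, with a median difference of 0.13, and none passed the fit. Tbk1 read 0.48 and Ikbke, its close relative, 0.42 higher on the log2 scale, while Irf3 read 0.19 lower, that is -0.19. The gene of the sensor, Cgas, differed by -0.50 in control cells and by -0.97 after dsDNA. None of 15 type I and type III interferon genes was counted either. Ifnb1, the interferon-β gene that IRF3 and NF-kB switch on, read 3.18 with vector, 3.21 with hSTING, 2.82 with N154S and 4.06 with R284S in control cells, all below the array medians, and 3.18, 8.80, 4.95 and 3.04 in the same order after dsDNA. The interferon-β signal after dsDNA was thus highest with hSTING, and with vector and R284S it was below the array medians, where signals have no order. Ifna family members are near-identical in sequence, so their probes cannot be assigned to single genes with certainty.

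Interferon-stimulated genes were split. Of 60 measured, 8 were 2-fold or more higher with R284S in control cells and none was lower, 37 were above 0, and the median difference was 0.16. The list's median signal stood at 4.43 with vector, 7.25 with hSTING, 8.49 with N154S and 7.76 with R284S in control cells. The 8 were Oasl1, Rsad2, Cmpk2, Ifih1, Ifit1, Ifit2, Gbp7 and Herc6, and none of the 60 passed the fit. The hSTING median was thus already well above that of vector.

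Promoters of some of the genes that stood highest are shown first, all of them windows that hold a motif match. The windows of Acod1, Cmpk2 and Serpinb9e, also among the highest genes, held none of the motifs searched. Each line gives the 250 bases before the start of transcription from RefSeq's GRCm38.p6 annotation, read 5′ to 3′ on the strand of the gene, with motif matches in capitals.
Cxcl10: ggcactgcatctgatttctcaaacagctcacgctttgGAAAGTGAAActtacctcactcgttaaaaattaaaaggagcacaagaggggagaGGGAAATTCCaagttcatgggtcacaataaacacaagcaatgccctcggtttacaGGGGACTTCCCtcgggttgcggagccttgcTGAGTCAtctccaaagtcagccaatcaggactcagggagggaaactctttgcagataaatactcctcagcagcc
Rsad2: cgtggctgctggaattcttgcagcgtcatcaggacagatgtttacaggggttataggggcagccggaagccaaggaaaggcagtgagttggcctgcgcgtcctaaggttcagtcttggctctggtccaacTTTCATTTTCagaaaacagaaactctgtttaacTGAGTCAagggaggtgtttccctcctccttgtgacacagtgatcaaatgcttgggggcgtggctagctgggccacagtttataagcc
Oasl1: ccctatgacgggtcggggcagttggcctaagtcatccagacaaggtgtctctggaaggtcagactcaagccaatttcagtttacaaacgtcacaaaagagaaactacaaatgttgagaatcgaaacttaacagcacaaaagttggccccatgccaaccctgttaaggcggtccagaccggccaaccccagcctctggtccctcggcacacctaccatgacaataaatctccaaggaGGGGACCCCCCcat
Neurl3: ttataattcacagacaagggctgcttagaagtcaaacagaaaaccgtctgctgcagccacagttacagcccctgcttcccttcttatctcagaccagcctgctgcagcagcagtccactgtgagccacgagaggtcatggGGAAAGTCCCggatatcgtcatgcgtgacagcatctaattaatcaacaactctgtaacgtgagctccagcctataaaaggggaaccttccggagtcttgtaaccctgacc
Sprr1a: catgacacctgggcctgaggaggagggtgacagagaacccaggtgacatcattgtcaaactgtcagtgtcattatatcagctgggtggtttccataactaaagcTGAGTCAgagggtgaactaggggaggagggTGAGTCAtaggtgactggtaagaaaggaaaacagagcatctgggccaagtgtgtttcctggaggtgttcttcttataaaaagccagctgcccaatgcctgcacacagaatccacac
The Cxcl10 window lies at chr5:92348890-92349139 on the minus strand, and it holds an interferon-stimulated response element core (GAAA, any pair of bases, then GAAA) 213 to 204 bases before the start, NF-kB matches at 159 to 150, 104 to 95 and, overlapping that match, 103 to 94, and an AP-1 match (TGANTCA) at 74 to 68. In Rsad2, at chr12:26456453-26456702 on the minus strand, the response element core lies 120 to 111 bases and the AP-1 match 87 to 81 bases before the start. The Oasl1 window, chr5:114922990-114923239 on the plus strand, has 2 overlapping NF-kB matches at 14 to 5 and 13 to 4. That of Neurl3, chr1:36273426-36273675 on the minus strand, has an NF-kB match at 110 to 101. Sprr1a, chr3:92485882-92486131 on the minus strand, has AP-1 matches at 146 to 140 and 116 to 110.

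Both strands were searched from 250 bases before to 50 after the start. Among the 15 protein-coding genes with the greatest excess in R284S, 10 had a promoter window, and 4 of these held the response element core (Rsad2, Cxcl10, Asb5 and Capn6), 3 an NF-kB match (Neurl3, Oasl1 and Cxcl10) and 4 an AP-1 match (Sprr1a, Rsad2, Cxcl10 and Capn6). Over 27025 genes with a window the shares were 3.99%, 9.55% and 8.97%. Of the 15 protein-coding genes that were lowest with R284S, 10 had a window, and none of them held any of the 3 motifs. Of the 17 lower members of the collagen and secreted matrix lists 13 had a window, and 1 held the response element core, 2 an NF-kB match and 1 an AP-1 match. Also searched was the composite element of the stress transcription factor ATF4 (TGATGNAA), present in 4.51% of all genes with a window. It was found in 1 of the 10 lowest genes with a window (Tubb3), in none of the 10 highest and in 2 of the 13 matrix genes. Of 8 lower genes that ATF4 is known to drive, 4 had a window and 1 of these, Pck2, held it. Capn6, which ranks just below the genes described here, is named from this count alone. A match says only that the letters are present.

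Oasl1, an interferon-induced gene of the OAS family, read 3.83 with vector, 6.16 with hSTING, 9.10 with N154S and 10.29 with R284S in control cells. After dsDNA its signals were 4.34, 10.82, 10.69 and 10.16 in the same order. The R284S control cells thus stood 17.5-fold above the hSTING control cells. Their signal was close to that of their own dsDNA array and below those of the hSTING and N154S dsDNA arrays. Rsad2 encodes viperin, which makes a chain-terminating nucleotide. Its control signals were 5.28, 6.80, 9.69 and 10.30, an 11.3-fold excess of R284S over hSTING, and its dsDNA signals 5.68, 11.51, 11.24 and 10.42. Cmpk2, the gene beside Rsad2, read 3.57, 7.07, 9.66 and 10.38 in control cells and 5.90, 12.06, 11.88 and 10.49 after dsDNA. Its control difference came to 9.92-fold. Ifih1, the gene for the RNA sensor MDA5, read 8.33 with hSTING and 10.53 with R284S in control cells, a 4.59-fold difference. Ifit1, an inhibitor of viral translation, stood at 9.58 and 11.51, a 3.81-fold difference.

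Outside the list, the helicase gene Ddx60 read 4.81 with hSTING and 6.90 with R284S in control cells, a 4.26-fold difference. None of the other interferon-stimulated genes on the list was counted in control cells. Isg15, a ubiquitin-like modifier, differed by 0.15 and Usp18, which removes it, by -0.17. Bst2 (tetherin) differed by -0.23. Mx1, an antiviral GTPase gene, read 3.08 with hSTING and 2.89 with R284S, both below the array medians, and Slfn5 read 4.62 and 3.77, the latter below it. The transcription factors above these genes were close as well: among 15 JAK-STAT and IRF genes none was counted, and Irf7, the amplifier of interferon output, read 9.72 with hSTING and 9.66 with R284S. Irf1 differed by 0.50, Irf9 by 0.23 and Stat2 by 0.52.

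**Figure D2:**
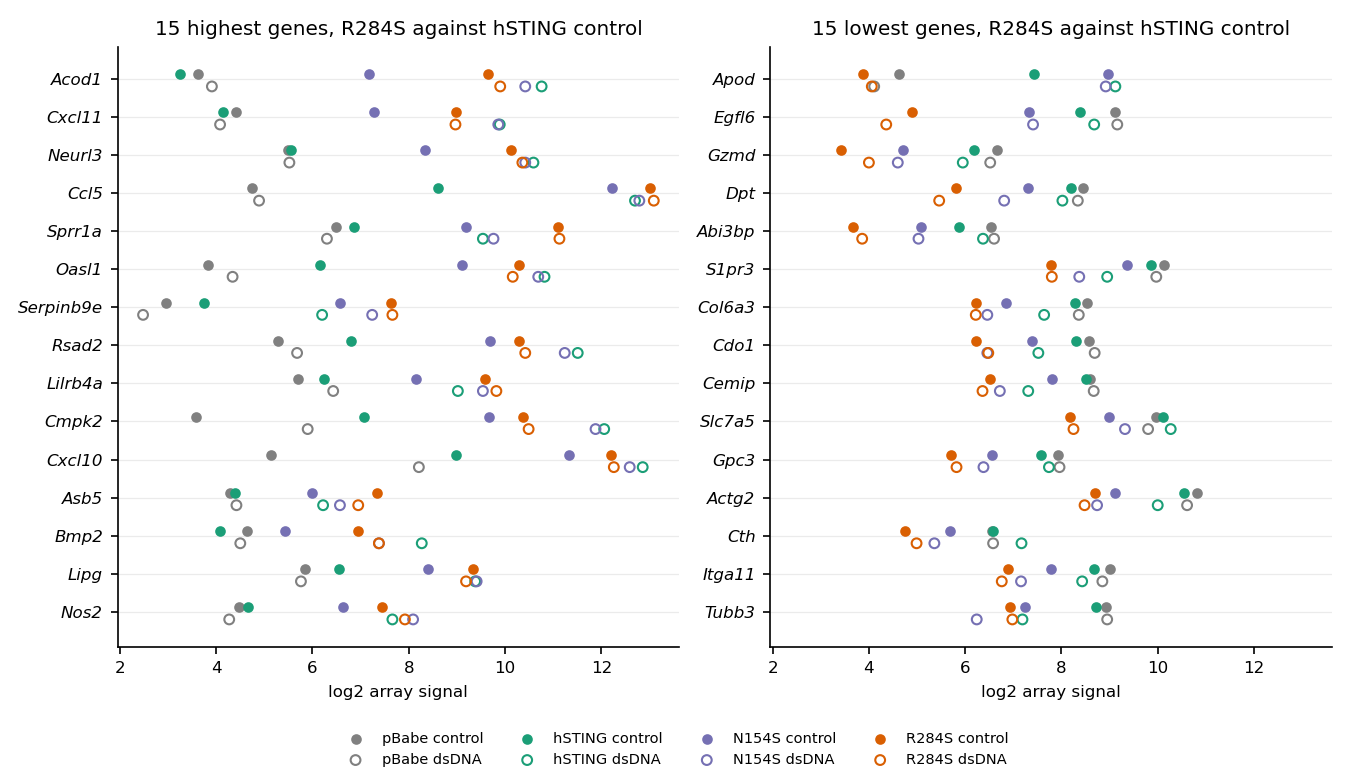
Log2 signals on all 8 arrays of the 15 genes with the highest and the 15 with the lowest difference between R284S and hSTING control cells, with filled points for control arrays, open points for dsDNA arrays and a colour for each construct. For Oasl1, Rsad2 and Cxcl10 the R284S control point lies beside the R284S dsDNA point and below the dsDNA points of hSTING and N154S. For Egfl6 and Dpt both R284S points lie apart at the bottom.

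Chemokines stood higher as a list than interferon-stimulated genes. All 13 measured interferon-induced and CC chemokines were above 0, 6 were 2-fold or more higher with R284S, and the median difference was 1.16. Cxcl11, a ligand of CXCR3, read 4.42 with vector, 4.14 with hSTING, 7.28 with N154S and 8.99 with R284S in control cells and 4.08, 9.89, 9.86 and 8.97 after dsDNA. RefSeq lists the mouse gene as a transcribed pseudogene, so its signal is that of a transcript. Ccl5 (RANTES), which draws T cells and monocytes, had control signals of 4.74, 8.60, 12.22 and 13.01 in the same order of lines. Its dsDNA signals were 4.89, 12.70, 12.79 and 13.09. The R284S cells held the highest Ccl5 signal in both treatments. Cxcl10, the other main CXCR3 ligand, read 5.13, 8.98, 11.33 and 12.21 in control cells, a 9.38-fold difference between R284S and hSTING, and 8.21, 12.86, 12.59 and 12.26 after dsDNA. Ccl3, Ccl4 and Cxcl16 made up the rest, at least 2.83-fold, at least 1.23-fold and by 1.16 on the log2 scale. None of the 13 passed the fit.

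Inflammatory cytokines and neutrophil chemokines gave 10 of 24 genes that were 2-fold or more higher and none that was lower, with a median difference of 0.88. The list's median signal was 5.12 with vector, 5.07 with hSTING, 6.49 with N154S and 7.21 with R284S in control cells, so that here the hSTING median did not lie above that of vector. Nos2, the inducible nitric oxide synthase, read 4.48 with vector, 4.67 with hSTING, 6.64 with N154S and 7.45 with R284S. After dsDNA its signals were 4.27, 7.66, 8.09 and 7.92. The control difference was 6.87-fold. Il1a, an alarmin of the IL-1 family, differed by 2.21 on the log2 scale. Il33, another member of that family, had control signals of 4.42, 4.54, 6.45 and 6.64 and dsDNA signals of 4.36, 9.64, 8.72 and 6.57, so that its 4.29-fold excess in control cells stood beside a deficit of 3.07 (a difference of -3.07) after dsDNA. The neutrophil chemokine genes Cxcl3 and Cxcl2 were at least 2.08-fold and at least 1.43-fold higher. Tlr2 differed by 1.40. Csf2 (GM-CSF) was at least 1.61-fold higher, but a second Csf2 probe set, below the array median on both arrays, gave -0.15.

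In this list 2 genes rose in the fit. Steap4, a metalloreductase gene that inflammatory cytokines induce, read 6.58 with vector, 5.82 with hSTING, 6.29 with N154S and 8.34 with R284S in control cells. After dsDNA the signals were 6.42, 5.81, 6.31 and 8.54. Both R284S arrays thus lay above all 6 others, and the control and dsDNA signals of each line were close. Lcn2, which encodes the iron-binding protein lipocalin 2, rose by 1.09 (SE 0.12, limma adjusted p = 0.0155).

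NF-kB subunits and feedback genes were mostly close between the lines. Tnfaip3, which encodes the NF-kB brake A20, was the only 1 of 17 that was counted. It read 5.54 with vector, 5.67 with hSTING, 6.99 with N154S and 8.24 with R284S in control cells, a 5.94-fold difference, and 5.67, 8.46, 8.43 and 8.23 after dsDNA. Nfkbia (IκBα), also a feedback gene, differed by 0.75, Nfkb2 by 0.08 and Relb by -0.02. The median of the list was 0.13, and none of the 17 passed the fit.

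Acod1, the enzyme gene for itaconate synthesis, was the highest member of the inflammatory list and of the whole control comparison. It read 3.63 with vector, 3.24 with hSTING, 7.18 with N154S and 9.65 with R284S in control cells and 3.91, 10.76, 10.42 and 9.90 after dsDNA. In control cells it went from below the array median with hSTING to 9.65 with R284S, short of the 10.76 that hSTING cells reached after dsDNA. Neurl3, an E3 ubiquitin ligase gene, had control signals of 5.50, 5.56, 8.34 and 10.13 and dsDNA signals of 5.52, 10.59, 10.42 and 10.36. Other genes at the top belonged to none of the lists. Lilrb4a, an inhibitory immunoglobulin-like receptor gene, read 5.70, 6.23, 8.16 and 9.58 in control cells, a 10.2-fold difference, and 6.43, 9.02, 9.54 and 9.82 after dsDNA. Lipg (endothelial lipase) was 6.92-fold higher at 6.55 with hSTING and 9.34 with R284S. Bmp2, a bone morphogenetic protein gene, was at least 5.66-fold higher and Asb5 at least 7.36-fold. None of these 6 genes passed the fit.

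Single members of the cornified envelope and serpin lists stood high, but neither list did. Of 18 cornified envelope genes 2 were counted higher and 1 lower, with a median of 0.17, and of 16 serpins 2 were higher and 2 lower, with a median of 0.05. The lower ones were Sprr2k at -1.65, Serping1 at -1.54 and Serpina3n at -1.50. Sprr1a, a cornified envelope gene that injured cells outside the skin express, read 6.48 with vector, 6.87 with hSTING, 9.18 with N154S and 11.11 with R284S in control cells. After dsDNA the signals were 6.30, 9.54, 9.76 and 11.13. The R284S arrays were the highest in both treatments, but the fit did not call the gene (a difference of 2.92, SE 0.61, limma adjusted p = 0.101). Sprr2e passed the fit (limma adjusted p = 0.0304) at dim signals of 3.37 with hSTING and 4.55 with R284S in control cells, which leave a rise of at least 0.21. Serpinb9e, a granzyme inhibitor gene, read 2.95, 3.74, 6.58 and 7.63 in control cells and 2.48, 6.20, 7.24 and 7.66 after dsDNA, at least 9.06-fold higher with R284S in control cells (limma adjusted p = 0.122). Its near-identical relative Serpinb9f rose in the fit, and probes for the Serpinb9 and Sprr2 families may read more than 1 member.

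Genes that stood high with R284S in both treatments could pass the fit. Besides Steap4, the 10 genes with the smallest p-values on this side were Il13ra2, Serpini1, H2-Ab1, Bnip3, Akr1c18, Ppbp, Slc22a23, Serpinb9f and Ndrg2. Il13ra2, the decoy receptor for IL-13, rose by 1.86 (SE 0.12, limma adjusted p = 0.00506), or by at least 0.94 when the dim hSTING signals are raised to the array median. H2-Ab1, the β chain of a class II molecule, read 5.86 with vector, 5.91 with hSTING, 6.83 with N154S and 7.53 with R284S in control cells, and 5.85, 5.62, 6.66 and 7.62 after dsDNA. The 2 variant lines were above the 2 others in both treatments. Class II genes did not follow it as a list: 1 of 9 was counted, and the median was -0.17. Akr1c18, a steroid dehydrogenase gene, had control signals of 6.92, 6.54, 8.42 and 8.73, and after dsDNA it read 6.61 with hSTING and 8.66 with R284S. Bnip3, a mitophagy receptor gene, rose by 1.69 and stood at 6.96 with hSTING and 8.57 with R284S in control cells. Ppbp, the platelet basic protein chemokine, read 6.15 and 7.67, and Ndrg2 6.09 and 7.49. Without the vector pair or the N154S pair all 10 still passed.

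**Figure D3:**
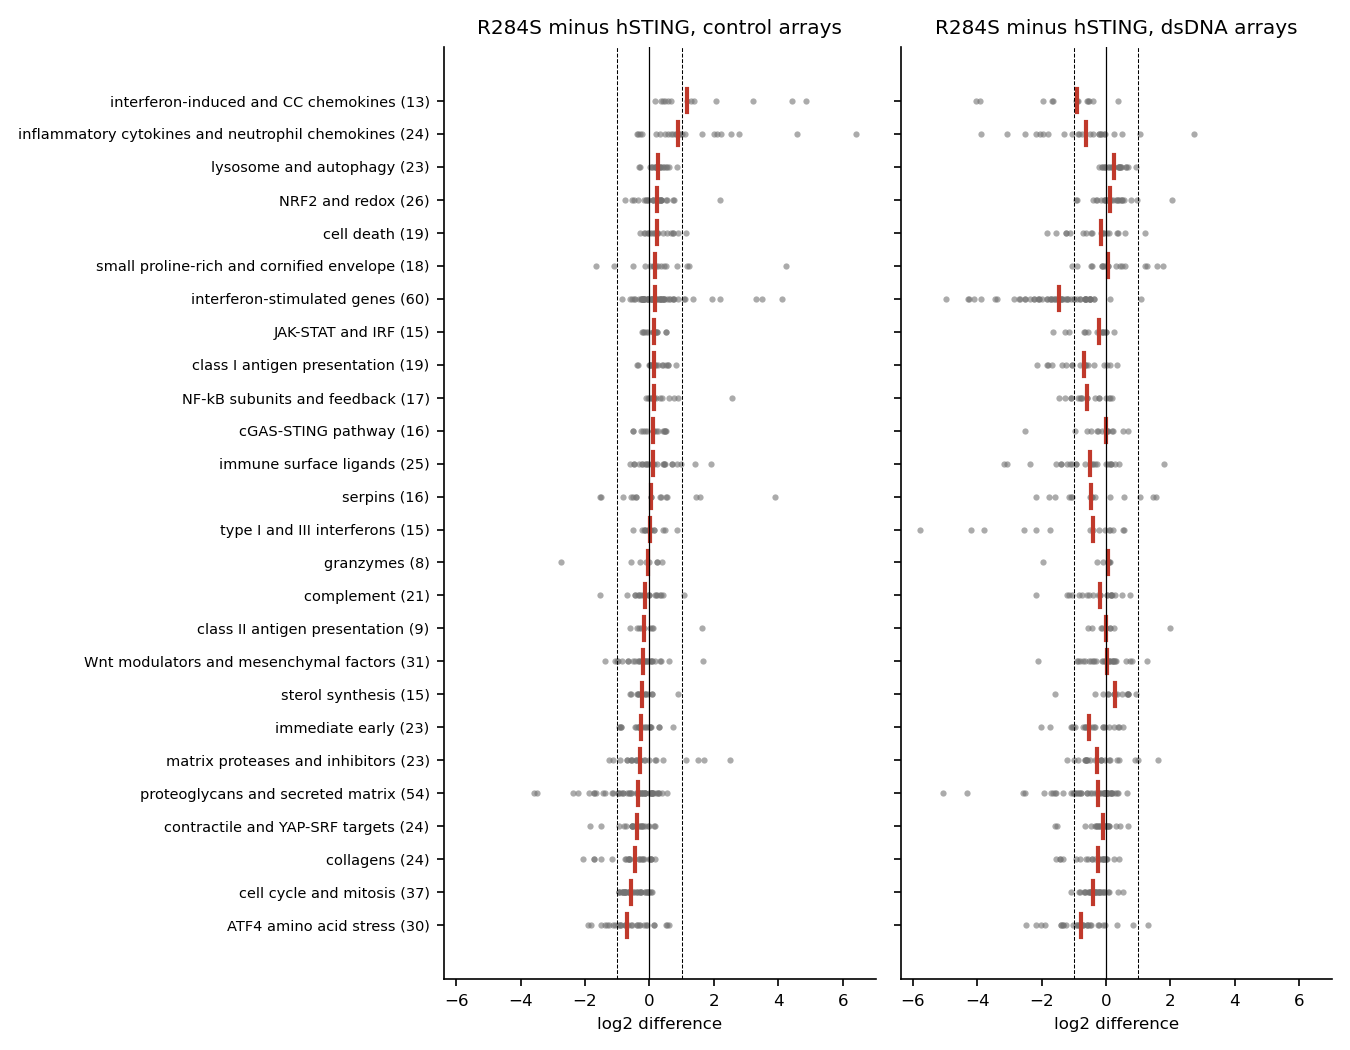
Difference between R284S and hSTING (log2) of every measured member of the 26 gene lists, in control cells and after dsDNA, with a red bar at each list's median. In control cells the chemokine list has its median at 1.16 and the inflammatory list at 0.88, while collagens, cell cycle and ATF4 genes lie mostly below 0, and after dsDNA the interferon-stimulated list has its median at -1.47.

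The collagen and the secreted matrix lists held 17 of the 107 genes that were lower with R284S. Of 24 collagen genes, 5 were 2-fold or more lower in control cells and none was higher, 19 lay below 0, and the median difference was -0.46. The same number, 5, fell in the fit. Of 54 proteoglycan and secreted matrix genes, 12 were lower and none higher, 40 lay below 0 with a median of -0.35, and 17 fell. The median collagen signal was 7.68 with vector, 7.52 with hSTING, 6.63 with N154S and 6.33 with R284S in control cells.

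Egfl6, a secreted matrix protein gene with EGF repeats, read 9.11 with vector, 8.38 with hSTING, 7.33 with N154S and 4.89 with R284S in control cells. After dsDNA it read 9.16, 8.68, 7.41 and 4.36. Both R284S arrays lay far below the others, and it fell by at least 3.86 in the fit (limma adjusted p = 0.00234), its R284S signal after dsDNA being below the array median. Dpt (dermatopontin), which helps collagen fibrils assemble, read 8.45, 8.19, 7.30 and 5.81 in control cells and 8.34, 8.02, 6.81 and 5.46 after dsDNA. It fell by 2.47 (SE 0.14, limma adjusted p = 0.00297). Abi3bp, a matrix-binding protein gene, had control signals of 6.53, 5.88, 5.08 and 3.66, so that R284S was below its array median. The matrix genes Fbln5, which organises elastic fibres, and Aspn (asporin) fell by 1.65 and by 1.72.

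The 5 collagen genes that were counted lower were Col6a1, Col6a2, Col6a3, Col3a1 and Col1a1. Col1a2 and Col5a1 were measured and not counted. Col6a3, a chain of beaded-filament collagen VI, read 8.54 with vector, 8.29 with hSTING, 6.85 with N154S and 6.22 with R284S in control cells and 8.36, 7.64, 6.46 and 6.22 after dsDNA. Its partner chains Col6a2 and Col6a1 differed by -1.71 and -1.50 in control cells. Col3a1, which forms fibrils with collagen I, stood at 9.05, 8.33, 7.69 and 6.61 in control cells and fell by 1.63 (limma adjusted p = 0.00807). Col1a1, the main chain of collagen I, read 11.53, 11.33, 10.73 and 10.16 in control cells and 11.36, 11.11, 10.47 and 10.19 after dsDNA. In each of the 5 counted collagens the R284S control array was the lowest of the 4 control arrays and the N154S array lay between it and hSTING. Itga11, the integrin chain with which fibroblasts bind collagen, fell by 1.74 (limma adjusted p = 0.00807).

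Unlike the matrix genes above, Apod was low in vector cells as well. It encodes a secreted lipid carrier, and it read 4.62 with vector, 7.44 with hSTING, 8.97 with N154S and 3.87 with R284S in control cells. After dsDNA the signals were 4.11, 9.12, 8.92 and 4.06. R284S and vector cells were thus both near the array median, with hSTING and N154S cells well above it, and Apod fell in the fit (limma adjusted p = 0.0138) by at least 3.82, the R284S signals being below the array median. Serping1, the C1 inhibitor gene, set R284S apart from all 3 other lines at 8.39, 8.51, 8.61 and 6.97 in control cells and 8.38, 9.07, 8.62 and 6.91 after dsDNA. It was the only 1 of 21 complement genes that was counted. Gpc3, a cell-surface heparan sulfate proteoglycan gene, differed by -1.87 in control cells.

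Some contractile and signalling genes of fibroblasts were also lower in control cells. Of 24 contractile and YAP-SRF target genes 22 lay below 0, with a median of -0.40, and 2 were counted lower. After dsDNA 15 of the 24 lay below 0, with a median of -0.085. Actg2, an actin of smooth muscle, read 10.81 with vector, 10.54 with hSTING, 9.11 with N154S and 8.70 with R284S in control cells, and fell by 1.68 (limma adjusted p = 0.00606). S1pr3, a receptor for sphingosine 1-phosphate, read 10.14, 9.87, 9.37 and 7.78 in control cells and 9.97, 8.95, 8.37 and 7.80 after dsDNA. The dsDNA array of hSTING was closer to R284S than its control array was, and the adjusted p was 0.0497. Among 31 Wnt modulators and mesenchymal factors 3 were counted lower and 1 higher, with Sfrp1, a Wnt antagonist gene, at -1.37. The median of these 31 was -0.19 in control cells and 0.03 after dsDNA. Gzmd, a granzyme gene whose probes may also read its close relatives, had control signals of 6.67, 6.18, 4.70 and 3.42, and Nppb, which encodes B-type natriuretic peptide, fell by 1.55. Ptn, the growth factor pleiotrophin, fell by 1.72 and read 8.95 with hSTING and 7.34 with R284S. Cdo1 (cysteine dioxygenase), Cemip, which takes part in hyaluronan breakdown, and the neuronal tubulin gene Tubb3 were among the 15 lowest in control cells at -2.07, -1.99 and -1.79, and none of these 3 passed the fit.

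Matrix proteases were divided. Among 23 protease and inhibitor genes, 4 were counted higher with R284S and 2 lower, and the median was -0.28. Mmp13, a collagenase gene, read 9.38 with hSTING and 11.07 with R284S. Mmp12, the macrophage elastase gene, rose by at least 1.40 (limma adjusted p = 0.0155). Timp3, an inhibitor of these enzymes, and the protease gene Adamts12 were lower at -1.14 and -1.27.

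Genes of amino acid supply were lower as well. Of 30 genes that the stress transcription factor ATF4 is known to drive, 8 were 2-fold or more lower in control cells and none was higher, 25 lay below 0, the median was -0.69, and 11 fell in the fit. Slc7a5, the large neutral amino acid transporter LAT1, read 9.96 with vector, 10.10 with hSTING, 8.98 with N154S and 8.18 with R284S in control cells and 9.80, 10.27, 9.32 and 8.25 after dsDNA. The R284S arrays were the lowest in both treatments. Cth, which makes cysteine from cystathionine, read 6.56, 6.58, 5.68 and 4.76 in control cells and 6.58, 7.17, 5.36 and 4.99 after dsDNA, and it fell in the fit (limma adjusted p = 0.0138). The remaining 6 were the cationic amino acid transporter gene Slc7a3, the mitochondrial PEP carboxykinase gene Pck2, the serine synthesis genes Psat1 and Phgdh, and the one-carbon genes Mthfd2 and Aldh1l2. Slc7a3 was at least 2.41-fold lower, its R284S signal being below the array median, and the other 5 differed by -1.37 (Pck2) to -1.06 (Phgdh). Asns, the asparagine synthetase gene, Slc7a1 and the glutathione-degrading enzyme gene Chac1 fell in the fit without being counted in control cells. Atf4 itself read 9.05 with hSTING and 8.51 with R284S and did not pass the fit, and Ddit3, which encodes CHOP, differed by 0.14. The members that fell were mostly transporters and biosynthetic enzymes rather than the stress regulators of the list.

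Most proliferation genes lay below 0. Of 37 cell cycle and mitosis genes 35 were below 0 in control cells, but none was counted, and the median was -0.57. The mitotic kinase gene Plk1 and the kinetochore motor gene Cenpe fell in the fit (limma adjusted p = 0.0438 and 0.038). Mki67, the common proliferation marker, differed by -0.81 and Cdkn1a, which encodes the arrest protein p21, by -0.02. Among 23 immediate early genes none was counted, with a median of -0.27, and the nuclear receptor gene Nr4a1 and the phosphatase gene Dusp5 fell (limma adjusted p = 0.0237 and 0.0376).

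**Figure D4:**
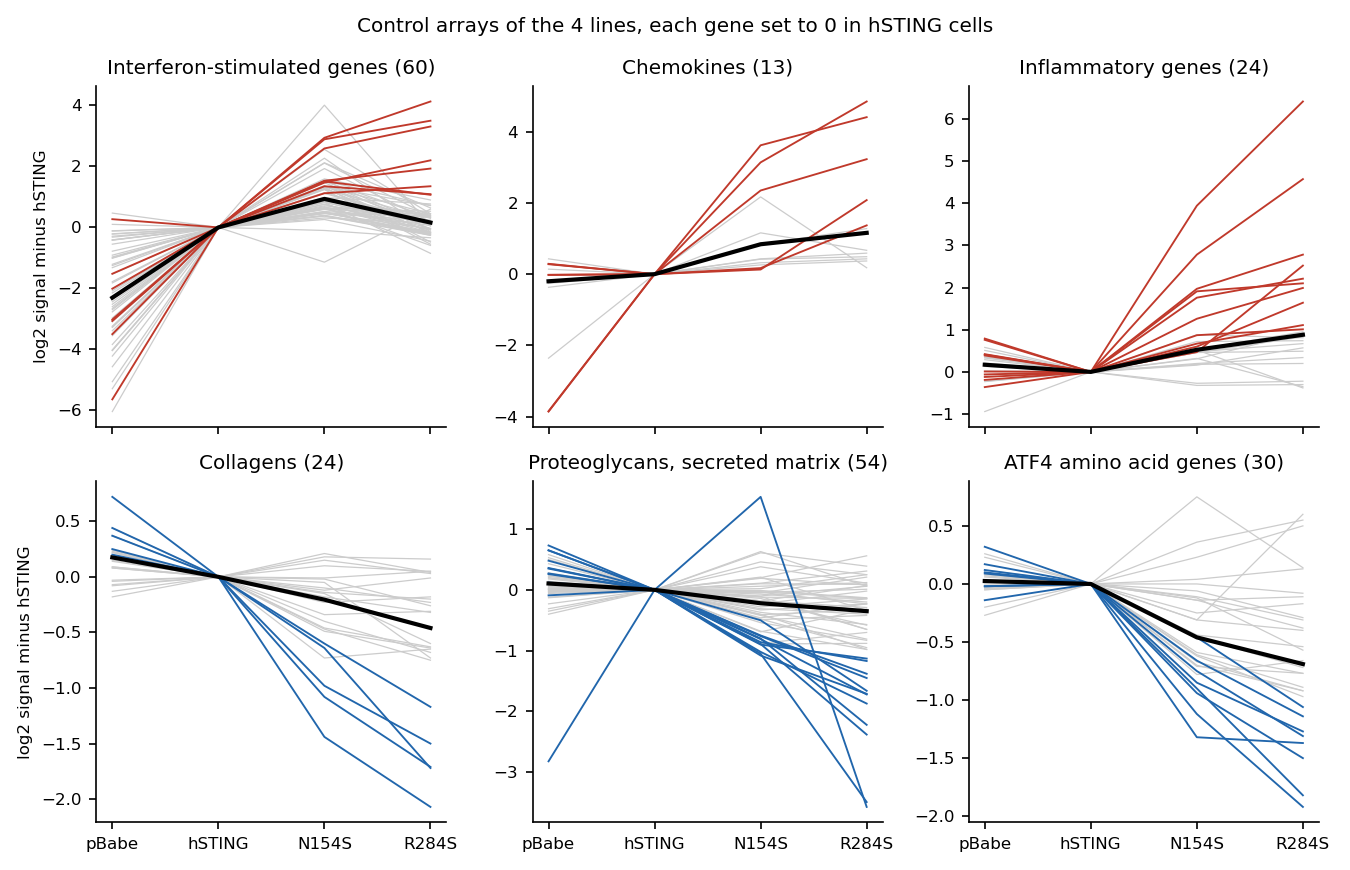
Log2 signals of the members of 6 gene lists in control cells of the 4 lines, each set to 0 in hSTING cells, with a black line at the list median, red lines for members 2-fold or more higher and blue lines for members 2-fold or more lower with R284S. The median of the inflammatory list stands at 0.88 with R284S, and those of the collagen and ATF4 lists at -0.46 and -0.69.

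Several gene groups showed little or no difference in control cells. None of 19 class I antigen presentation genes was counted, with a median of 0.14. Of 26 NRF2 and redox genes 1 was higher, with a median of 0.24, and of 25 immune surface ligand genes 2 were higher, with a median of 0.10. Lysosome and autophagy genes were above 0 in 21 of 23 cases, but none was counted, the median was 0.26, and Gpnmb, a lysosomal glycoprotein gene, was the only 1 that rose (limma adjusted p = 0.0305). Sterol synthesis genes had a median of -0.23 and no counted member. Of 19 cell death genes, Perp, a p53 target in the plasma membrane, was the only 1 counted and rose by 1.18 (limma adjusted p = 0.0305). The housekeeping genes Actb, Gapdh and Rplp0 differed by -0.21, 0.05 and -0.09, and Hprt and Tbp by 0.33 and 0.18.

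Markers of cell types were read beside these groups. All 11 fibroblast markers were above the array median on every array, Vim and Fn1 at 12.64 and 12.09 with R284S, and their summed level was 14.53 on the log2 scale with hSTING and 14.15 with R284S. The 2 that were counted lower were Col1a1 and Col3a1, which also belong to the collagen list, so these markers and the matrix genes were lower together. Of 10 macrophage and other myeloid markers, 7 with hSTING and 8 with R284S were below the array median, the summed levels were 7.70 and 7.88, and the defining genes Ptprc (CD45), Adgre1 and Itgam read 2.63, 2.74 and 3.12 with R284S. Lymphoid markers were below the median in 3 of 4 cases and adipocyte markers in 3 of 3. Of 6 epithelial markers 4 were below the median, with summed levels of 6.68 and 7.06, and Cldn4, a tight junction gene, was at least 2.07-fold higher with R284S while Epcam and Krt14 read 2.24 and 3.16. Muscle markers differed little, with summed levels of 9.75 and 9.90, and so did endothelial markers, with 6.17 and 6.24. The part of cell makeup in the matrix and Sprr1a differences was not tested.

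The same lines after dsDNA share no array with the control comparison, and there 212 genes (0.956%) were 2-fold or more higher with R284S and 386 (1.74%) were lower. Counted from the control side, a larger share of the lower than of the higher genes was found again after dsDNA. Counted from the dsDNA side the order was reversed, and neither difference between shares was tested. Of the 107 genes lower in control cells, 58 were also lower after dsDNA (54.2% of the 107, and 58 of the 386), and 103 were below 0. Of the 156 genes higher in control cells, 49 were also higher after dsDNA (31.4% of the 156 and 23.1% of the 212), while 18 were 2-fold or more lower and the other 89 were neither. The median dsDNA difference was -1.06 for the lower and 0.47 for the higher genes. Setbp1 was the only lower gene that was 2-fold or more higher after dsDNA, at -1.03 and 1.32, its hSTING signal after dsDNA of 3.99 being below the array median. It was named after its values were seen.

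For interferon-stimulated genes the comparison ran the other way after dsDNA. There, 41 of the 60 were 2-fold or more lower with R284S and 1 was higher, with a median of -1.47. The list's median signal with R284S was 7.76 in control cells and 7.75 after dsDNA, against 7.25 and 9.24 with hSTING. Rsad2 and Cmpk2 differed by -1.09 and -1.57 after dsDNA. Mx1, dim in both control lines, read 7.22 with hSTING and 2.95 with R284S after dsDNA, and Ifi205 went from a difference of -0.48 to -4.09. Chemokines did the same on a smaller scale, with 5 of 13 lower and a median of -0.89, and inflammatory genes had 9 of 24 lower and 2 higher, with a median of -0.62. The matrix and ATF4 lists kept their sign: the medians after dsDNA were -0.24 for collagens, -0.26 for secreted matrix and -0.78 for ATF4 genes, with 4, 13 and 10 members 2-fold or more lower. Whether the difference between lines depends on dsDNA cannot be tested with 1 array of each kind.

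**Figure D5:**
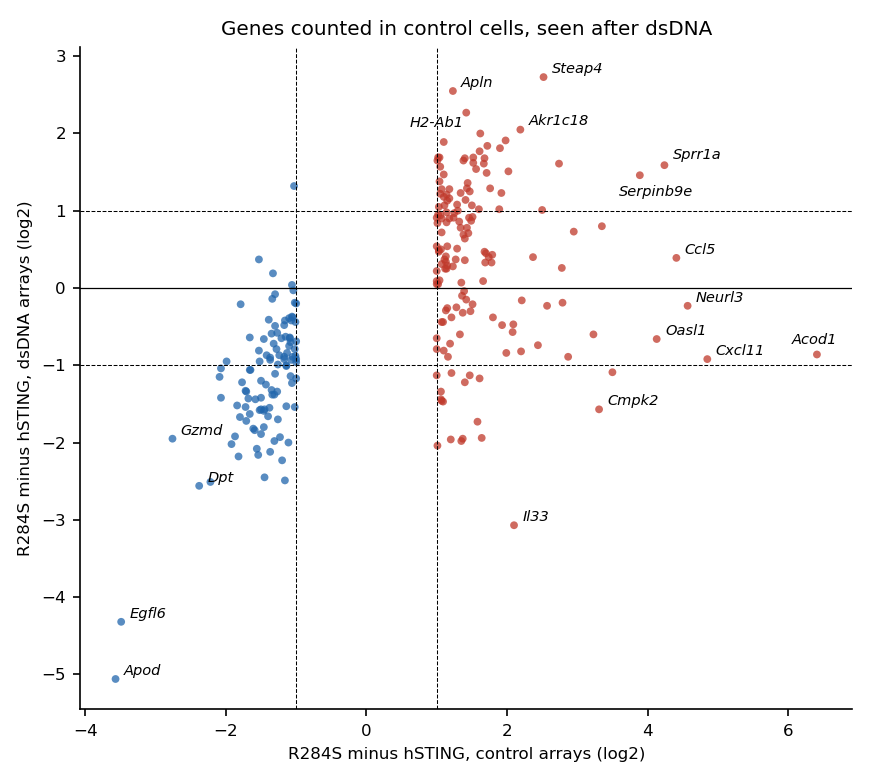
Difference between R284S and hSTING (log2) in control cells (x axis) and after dsDNA (y axis) for the 263 genes counted in control cells, each point a gene. On the left 103 of the 107 lower genes lie below 0 on both axes, and on the right the higher genes spread from Steap4, at 2.52 and 2.73, down to Il33, at 2.10 and -3.07.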

How the data were processed

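RNA was measured on 8 Affymetrix arrays, from 300 ng of total RNA each per the labels' protocols (GeneChip WT PLUS labelling). The authors deposited normalized log2 signals per probe set, made with Affymetrix Expression Console 1.3.1.187 per the submitters' processing notes. No label names its algorithm. Quantile-type normalization would hide a shift shared by most genes. Array medians of named genes lay between 4.42 and 4.47.

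Of 41345 probe sets, 23521 carried 1 gene symbol, 1814 several and 16010 were not listed in the annotation table. Each of 22180 genes was read from its probe set with the highest mean, which chose 1 of several for 1082 genes. Other probe sets of a counted gene, mostly dim, gave smaller or opposite differences for Angpt1, Rgs2 and Prelp among others.

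The control comparison is a plain difference of log2 signals. The fit used limma 3.58.1 in R 4.3.3 (construct plus dsDNA, 8 arrays, 3 residual degrees of freedom, Benjamini-Hochberg over all genes). It was also run on data simulated from the same additive model, which cannot test whether that model holds for these arrays. The text names the 15 highest and 15 lowest genes of the control comparison, the 10 smallest p-values per direction of the fit, a pathway panel and list members. Members and lists were chosen with earlier results of these data known, so list counts are descriptions without a test. Alternatives covered the brightness rule, probe set rule, normalization, variance model and left-out lines.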

Additional observations from a re-analysis of the deposited data

Results flagged for a closer look

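Of the 156 genes higher with R284S in control cells, 18 were 2-fold or more lower after dsDNA, among them 2 of the 15 highest. Rsad2, the viperin gene, differed by 3.50 in control cells and by -1.09 after dsDNA, and Cmpk2, its neighbour, by 3.31 and -1.57. Further down, Il33 went from 2.10 to -3.07 and Ifit2 from 1.35 to -1.98. Tlr2 went from 1.40 to -1.22, Gbp7 from 1.09 to -1.47 and Herc6 from 1.07 to -1.46. Csf2, Cxcl2 and Ccl4, with dim hSTING control signals, differed by -2.04, -1.94 and -1.95 after dsDNA. The median of the interferon-induced and CC chemokines was 1.16 in control cells and -0.89 after dsDNA. That of the inflammatory cytokines and neutrophil chemokines was 0.88 and -0.62. The interferon-stimulated list had medians of 0.16 and -1.47. The difference between the 2 treatments was not tested, since an interaction could not be fitted with 1 array of each kind.

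Probe sets outside the gene comparison held differences as well. Of 1814 probe sets with several gene symbols, 19 were 2-fold or more higher with R284S in control cells (1.05%) and 9 were lower (0.496%), and 7 and 4 of these were so after dsDNA too. Of 16010 probe sets without a listed symbol, 92 were higher (0.575%) and 135 lower (0.843%), with 12 and 20 found again after dsDNA. Their differences ran from -3.32 to 2.38.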

How the results depend on the processing

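No paired analysis was possible because each group has 1 array and the labels give no replicate numbers. The count of higher genes in control cells moved from 156 to 98 when the brighter array had to reach the upper quartile of named genes, and the other counts of the control comparison stayed within 1.5 times under the alternatives run for them. The fit's counts moved more. With a variance trend and robust variances 322 genes rose and 262 fell, including 113 and 96 of those called. Among 11661 genes at or above the array median on at least 2 arrays 239 rose and 190 fell, including 103 and 95. Leaving out a pair of arrays gave 17 to 33 risen and 30 to 46 fallen genes, the lower numbers without N154S (all of them called with all arrays) and the higher without vector (32 and 46 called with all arrays). Quantile normalization gave 112 and 97 calls and the mean of a gene's probe sets 115 and 100. The 20 genes named from the fit passed under each of these 6 alternatives, and no result reversed. A scaling moved the median of all genes by at most 0.02. Unadjusted p-values below 0.05 numbered 3037 in the fit. The limit of the data is the single array per group: dim genes have only bounds, and no spread between cultures can be had.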

Other observations

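Genes that hypoxia-inducible factor is known to drive were high together with R284S. The list was drawn up after the values were seen, so its counts are a description with no test. Of 39 measured, 12 were 2-fold or more higher in control cells and none was lower, 38 lay above 0 with a median of 0.65, and 13 rose in the fit. The list's median signal was 7.53 with vector, 7.09 with hSTING, 7.69 with N154S and 8.47 with R284S in control cells, and 7.61, 7.46, 7.78 and 8.38 after dsDNA. Bnip3, a mitophagy receptor gene, differed by 1.61, and Egln3, an oxygen-sensing prolyl hydroxylase gene, by 1.38. The peptide hormone gene Apln differed by 1.23, the lipase inhibitor gene Angptl4 by 1.18 and the glycogen branching enzyme gene Gbe1 by 1.15. Members that stayed closer were the growth factor gene Vegfa at 0.06, the lactate dehydrogenase gene Ldha at 0.46 and the glucose transporter gene Slc2a1 at 0.59. After dsDNA 13 of the 39 were 2-fold or more higher and the median was again 0.65.

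Replication-dependent histone genes, also grouped after their values were seen and near-identical among themselves, ran the other way. Of 26 measured, 6 were 2-fold or more lower with R284S in control cells and none was higher, with a median of -0.35, and 3 fell in the fit. The linker histone gene H1f5 differed by -1.66, H2ac20 by -1.53 and H2bc12 by -1.34. A second, dim probe set of H4f16 gave 0.03 against -1.17. After dsDNA 1 was lower and 1 higher, and the median was -0.30.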
